A study of Mus musculus with 6 samples.

Results

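Knockdown of H1f0, the gene of linker histone H1.0, was compared with a control siRNA across the whole transcriptome of mouse embryonic fibroblasts. The comparison uses 4 of the 6 libraries of the series: 2 transfected with the H1f0 siRNA (siH1f0) and 2 with the control siRNA (siControl), chosen by their labels. The other 2 libraries received an siRNA against Junb (siJunb), which encodes a subunit of the transcription factor AP-1. They enter the filters on low expression, the scaling of the libraries, the estimate of the spread and 1 direct comparison with siH1f0. All 6 came from 1 line, iMGT-Myh6-eGFP-MEF, an engineered line given doxycycline (1 ug/mL) to induce Mef2c, Gata4 and Tbx5, factors used to turn fibroblasts towards heart muscle cells. Its reporter, Myh6-eGFP, bears the name of the cardiac alpha-myosin heavy chain gene. The controls were therefore induced in the same way as the knockdown, and no library without induction was analysed here. Cells were transfected on day -1 and induced a day later. Harvest was at day 1 by the sample labels but at day 3, after sorting of GFP+ cells, by the series text, and the sources used here do not settle which applies. Of 24516 gene symbols in the count table, 13427 passed the filter on low counts and were tested.

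Linker histones sit where DNA enters and leaves the nucleosome and help to pack chromatin into denser fibres. H1.0 is the replication-independent form: its mRNA carries a poly(A) tail, and it accumulates in cells that leave the cell cycle. The main somatic forms, encoded in the Hist1 cluster, are made largely during DNA replication. An siRNA lowers its target by base pairing, and, as with miRNAs, pairing of only its seed, a short stretch near the 5′ end of the guide strand, to a 3′ UTR can also lower other transcripts.

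The libraries held 59380780 and 65746378 counts in siH1f0 and 85979630 and 65998575 in siControl. The siControl pair differed more from each other than the siH1f0 pair did, with SDs of the log2 ratio over genes of 0.184 and 0.107, and siControl 1 held more Rn45s, the ribosomal RNA precursor (1.90% of counts against 0.627% in siControl 2 and 0.308% and 0.348% in siH1f0). Levels below are CPM, counts scaled to library size. Of the 10 fibroblast markers none was at 0 in all libraries, and they summed to between 4615 and 4943 CPM, although Thy1 did not exceed 0.0115 CPM in the 4 libraries. Some heart muscle genes were also detected: Tnnt2, cardiac troponin T, lay between 94.2 and 108 CPM, and Myh6 between 7.61 and 10.9 CPM. Others were not. Of 18 listed endogenous cardiac transcription factor genes, 7 were at 0 in all libraries: Nkx2-5, Hand1, Hand2, Isl1, Tbx20, Gata5 and Irx4. The sarcomere gene Myl3 and the gap junction gene Gja5 were also at 0 in all libraries. In bulk RNA, fewer cells of a type and less RNA per cell cannot be told apart.

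H1f0 was reduced in both knockdown libraries. It was at 798 and 743 CPM in siControl and at 51.6 and 54.4 CPM in siH1f0. That is a log2 change of -3.86 ± 0.06 (SE, n = 2 each; edgeR adjusted p = 7.12e-09), with no overlap between the groups. The other replication-independent linker histone measured, H1fx (H1.10), was at 62.2 and 51.9 CPM in siControl and 57.1 and 59.1 CPM in siH1f0, so its groups overlapped (log2 0.03 ± 0.08, edgeR adjusted p = 0.886). Hist1h1c (H1.2) was at 39.5 and 36.2 CPM in siControl and 20.7 and 21.2 CPM in siH1f0, a fall of 0.85 on the log2 scale (edgeR adjusted p = 2.50e-04). Hist1h1e (H1.4) was at 3.16 and 2.02 CPM against 1.38 and 1.21 CPM (log2 -1.01, adjusted p = 0.0391), a call lost without siControl 1 and without any siH1f0 or siJunb library (highest adjusted p 0.257). Hist1h1a, Hist1h1b and Hist1h1d lay at or below 1.71 RPKM, a level scaled to depth and transcript length, in both groups and were not called, so 3 of 7 measured linker histone genes fell and 0 rose. Without siControl 2, Hist1h1a lay at -1.79, Hist1h1b at -1.10 and Hist1h1d at -1.24. Without siControl 1, H1fx lay at 0.16.

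Per transcript length, H1f0 made up 74.9% of the summed linker histone mRNA in siControl (337 of 449.7 RPKM) and 21.0% in siH1f0 (23.2 of 110.5 RPKM). The summed level of the 7 genes in siH1f0 was 24.6% of that in siControl. H1fx, at 53.7 and 54.7 RPKM, was the most abundant linker histone transcript in siH1f0, followed by Hist1h1c at 28.9 RPKM. The Hist1 genes are poorly captured by poly(A) selection, so their share is a share of these libraries' reads and may not be that of the cells' RNA.

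The induced factors did not pass the test. Mef2c was at 354 and 709 CPM in siControl and 793 and 714 CPM in siH1f0 (log2 0.50, edgeR adjusted p = 0.267), Gata4 at 844 and 1411 CPM against 1480.1 and 1393 CPM (log2 0.35, adjusted p = 0.299), and Tbx5 differed by 0.21 (adjusted p = 0.334). The low values were those of siControl 1. Without that library Mef2c and Gata4 differed by 0.087 and 0.026, and without siControl 2 by 1.09 and 0.76. With 1 control library left, such fits hold no spread between controls. Reads of the induced copies and of the cells' own genes cannot be told apart in this table.

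**Figure D1:**
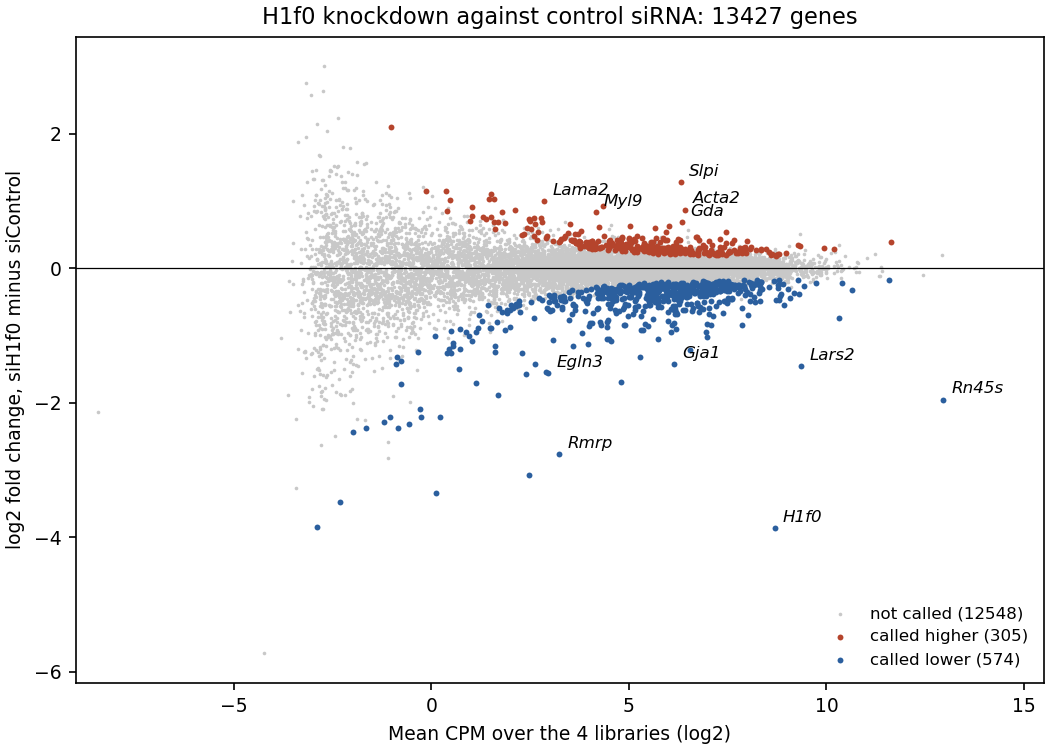
Each point is 1 of 13427 genes, placed by its mean CPM over the 4 libraries (log2) and its log2 fold change, siH1f0 minus siControl. Red points are the 305 genes called higher, blue points the 574 called lower, and grey points the rest; H1f0 lies at -3.86 and the largest labelled increase, Slpi, at 1.28.

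At an adjusted p under 0.05 (edgeR quasi-likelihood test, Benjamini-Hochberg), 879 genes were called, 6.55% of those tested. Of these, 305 were higher in siH1f0 (2.27%) and 574 lower (4.27%). Most changes were small: 37 called genes were at least 1.5-fold higher (0.276%) and 140 at least 1.5-fold lower (1.04%). The median log2 change over all tested genes was 0.003, and 50.6% of genes showed no overlap between the libraries of the 2 groups. The number of calls depended on single libraries. A fit with 1 library left in a group holds no spread within that group. Its calls rest on the spread of the other groups. Without siControl 1, 9.03% of the genes tested were called higher and 12% lower, and without siControl 2, 18.9% and 17.0%. Without siH1f0 1 there were 116 calls and without siH1f0 2 there were 129, and 8 of the 305 higher and 94 of the 574 lower genes were called whichever of the 6 libraries was left out.

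Slpi, which encodes a secreted inhibitor of neutrophil elastase, rose most among genes of at least 5 CPM, from 49.0 and 43.6 CPM in siControl to 115 and 111 CPM in siH1f0 (log2 1.28 ± 0.07, SE, n = 2 each; edgeR adjusted p = 3.84e-05). Lama2, the laminin alpha-2 chain of muscle basement membranes, rose from 4.41 and 5.25 CPM to 9.45 and 9.76 CPM (log2 1.00). Gda, the guanine deaminase gene, rose from 57.3 and 67.2 CPM to 99.3 and 101 CPM (log2 0.68). The other genes of the 12 chosen for the largest increases, a choice that required groups without overlap, were Col8a1, a short-chain collagen (0.92), Acta2, smooth muscle alpha-actin (0.87), Myl9, a myosin regulatory light chain (0.84), the transporter gene Abca8b (0.74), Efhd1, a calcium-binding mitochondrial protein (0.72), Sync, which encodes the intermediate filament protein syncoilin (0.70), Tnni3, cardiac troponin I (0.68), the aminopeptidase gene Enpep (0.66), and Dcn, decorin (0.65). Of the 12, Slpi, Lama2, Col8a1, Acta2 and Gda were also called without each library in turn, and the other 7 lost the call without siH1f0 1 or siH1f0 2 (highest adjusted p 0.178). None of the 12 holds either of the 3′ UTR heptamers described below.

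The largest decreases were chosen by the same rule: called genes with a mean of at least 5 CPM and no overlap, Gm, Rik, Mir and bare Ensembl symbols left out. Some called genes outside this rule, such as Hp and Mir6236, fell further than several of those chosen. The 12 genes so chosen were H1f0, the RNAs Rpph1, Rmrp and Rn45s, Lars2 and 7 others. Lars2 is described with the RNAs without poly(A) tails, since its libraries showed the same pattern; it holds no heptamer and lost its call without either siH1f0 library (highest adjusted p 0.157). Among the 7, Gja1 (connexin 43, a gap junction channel) fell from 98.5 and 108 CPM to 39.0 and 37.4 CPM (log2 -1.43 ± 0.06, SE, n = 2 each; edgeR adjusted p = 2.65e-05). Egln3, an oxygen-sensing prolyl hydroxylase, fell from 11.2 and 12.1 CPM to 4.12 and 3.76 CPM (log2 -1.56). Rap1gds1, which encodes an exchange factor and chaperone for small GTPases, fell from 126 and 133 CPM to 58.8 and 52.6 CPM (log2 -1.22). The remaining ones of the 7 were Saa3, a serum amyloid gene (-1.57), Cdsn, corneodesmosin (-1.42), Zmat3, an RNA-binding protein gene activated by p53 (-1.31), and Psrc1, a microtubule-associated protein gene (-1.16). These 7 were called without each library in turn (highest adjusted p 0.0140). Of the 7, those other than Psrc1 hold in their 3′ UTR a heptamer that was more frequent among genes lower in siH1f0.

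That heptamer search took the longest annotated 3′ UTR of each gene (GENCODE vM21, GRCm38; at least 50 bases, genes with a mean of at least 1 CPM, H1f0 left out) and ranked all 16384 heptamers by how much lower the genes holding them were in siH1f0 than in siControl, after allowing for UTR length. The first 2 both occur in the 3′ UTR of H1f0 itself, which is 1198 bases long. The windows below show each match in capitals with up to 10 bases on either side, 5′ to 3′ on the strand of the gene, in GRCm38; they are shown because they are the letters that the lower genes share with H1f0.
heptamer 1: GTGGACT
heptamer 2: GCGTCCT
H1f0, chr15:79029956-79029982, plus strand, heptamer 1: ttaaatgcgaGTGGACTtagggggagg
H1f0, chr15:79030207-79030233, plus strand, heptamer 1: gaggcagggaGTGGACTgtaagacata
H1f0, chr15:79030043-79030069, plus strand, heptamer 2: ttgatggattGCGTCCTagcaggactt
Gja1, chr10:56389929-56389955, plus strand, heptamer 1: gttgcttagaGTGGACTatcaagtgag
Zmat3, chr3:32339376-32339402, minus strand, heptamer 1: acagaaaacaGTGGACTtaagggcttg
Zmat3, chr3:32337788-32337814, minus strand, heptamer 1: agagaaattgGTGGACTgtgtacccaa
Egln3, chr12:54180303-54180329, minus strand, heptamer 2: ctttatgtatGCGTCCTgatttgaagg
Rap1gds1, chr3:138925955-138925981, minus strand, heptamer 1: ggctggataaGTGGACTaatgttgcat
Rap1gds1, chr3:138926720-138926746, minus strand, heptamer 2: tgtctctaaaGCGTCCTtgatgtttgt
Gla, chrX:134589689-134589715, minus strand, heptamer 1: atattccgagGTGGACTgggaggaggg
Tgfa, chr6:86272812-86272838, plus strand, heptamer 2: aagtggattaGCGTCCTcgtgagccca

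Because these fold changes were used to pick the heptamers, the counts that follow describe the choice and test nothing. Of 10832 genes searched, 12.7% held either one in the 3′ UTR. Among 529 searched genes called lower the share was 39.3%, among 290 called higher 7.93%, and among the 109 called at least 1.5-fold lower 52.3%. The median log2 change was 0.02 over 9454 genes with neither, -0.04 over 1084 with heptamer 1 alone, -0.07 over 252 with heptamer 2 alone and -0.12 over 42 with both. Genes with 1 match had a median of -0.04 and genes with 2 or more a median of -0.10. The UTRs of holders were longer (median 2342 against 1104 bases). Among UTRs of 1500 to under 4000 bases, 15.8% of 679 holders were called lower and 1.62% higher, against 2.88% and 3.58% of 3017 genes with neither. The same heptamers ranked 1 and 2 in the ratio of siH1f0 1 to siControl 1 and in that of siH1f0 2 to siControl 2. Both ratios come from the 4 libraries that picked the heptamers, so these ranks test nothing either. No mature mouse miRNA of RefSeq has the seed (bases 2 to 8) that pairs with either. The sequence of the siRNA is not given in the sources used here, and its part in these differences was not tested.

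**Figure D2:**
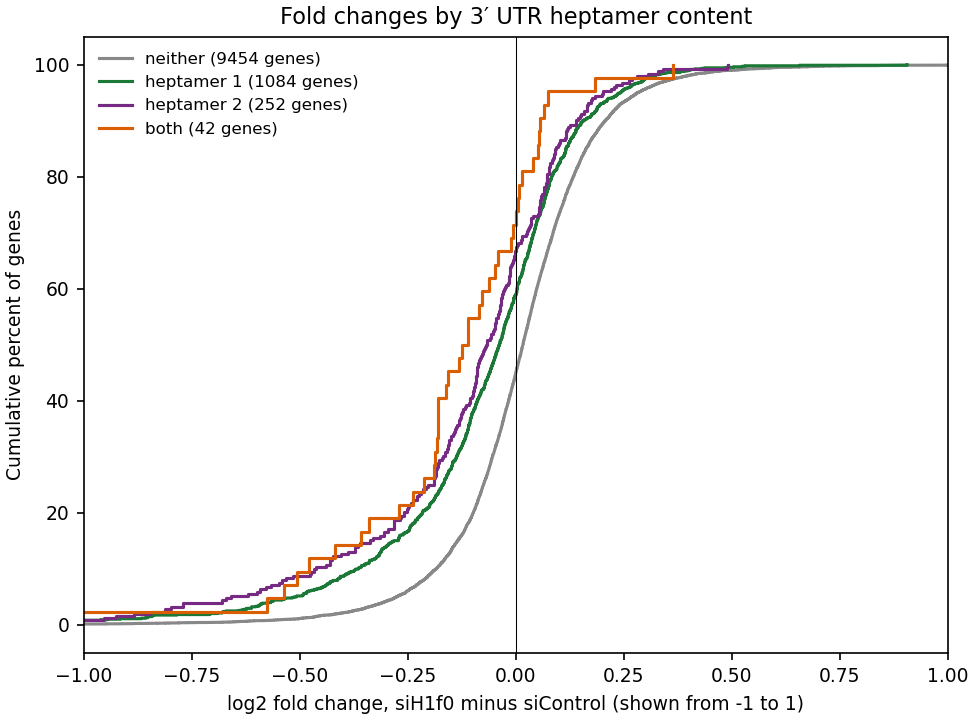
Cumulative share of genes (vertical axis, percent) by log2 fold change, siH1f0 minus siControl (horizontal axis, shown from -1 to 1), for genes whose longest 3′ UTR holds neither heptamer, heptamer 1 alone, heptamer 2 alone or both. The curves of the holders lie to the left of the grey curve, with medians of -0.04, -0.07 and -0.12 against 0.02; the heptamers were chosen from these fold changes.

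With every tested gene that holds either heptamer left out, 11923 remained, of which 2.37% were called higher (282) and 3.05% lower (364). Called genes named below that hold a heptamer are pointed out, and for some lists the counts are also given without the holders. The lists were assembled for this tissue and treatment with earlier results of these data known, and their counts stand beside the shares over all tested genes, 2.27% higher and 4.27% lower.

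**Figure D3:**
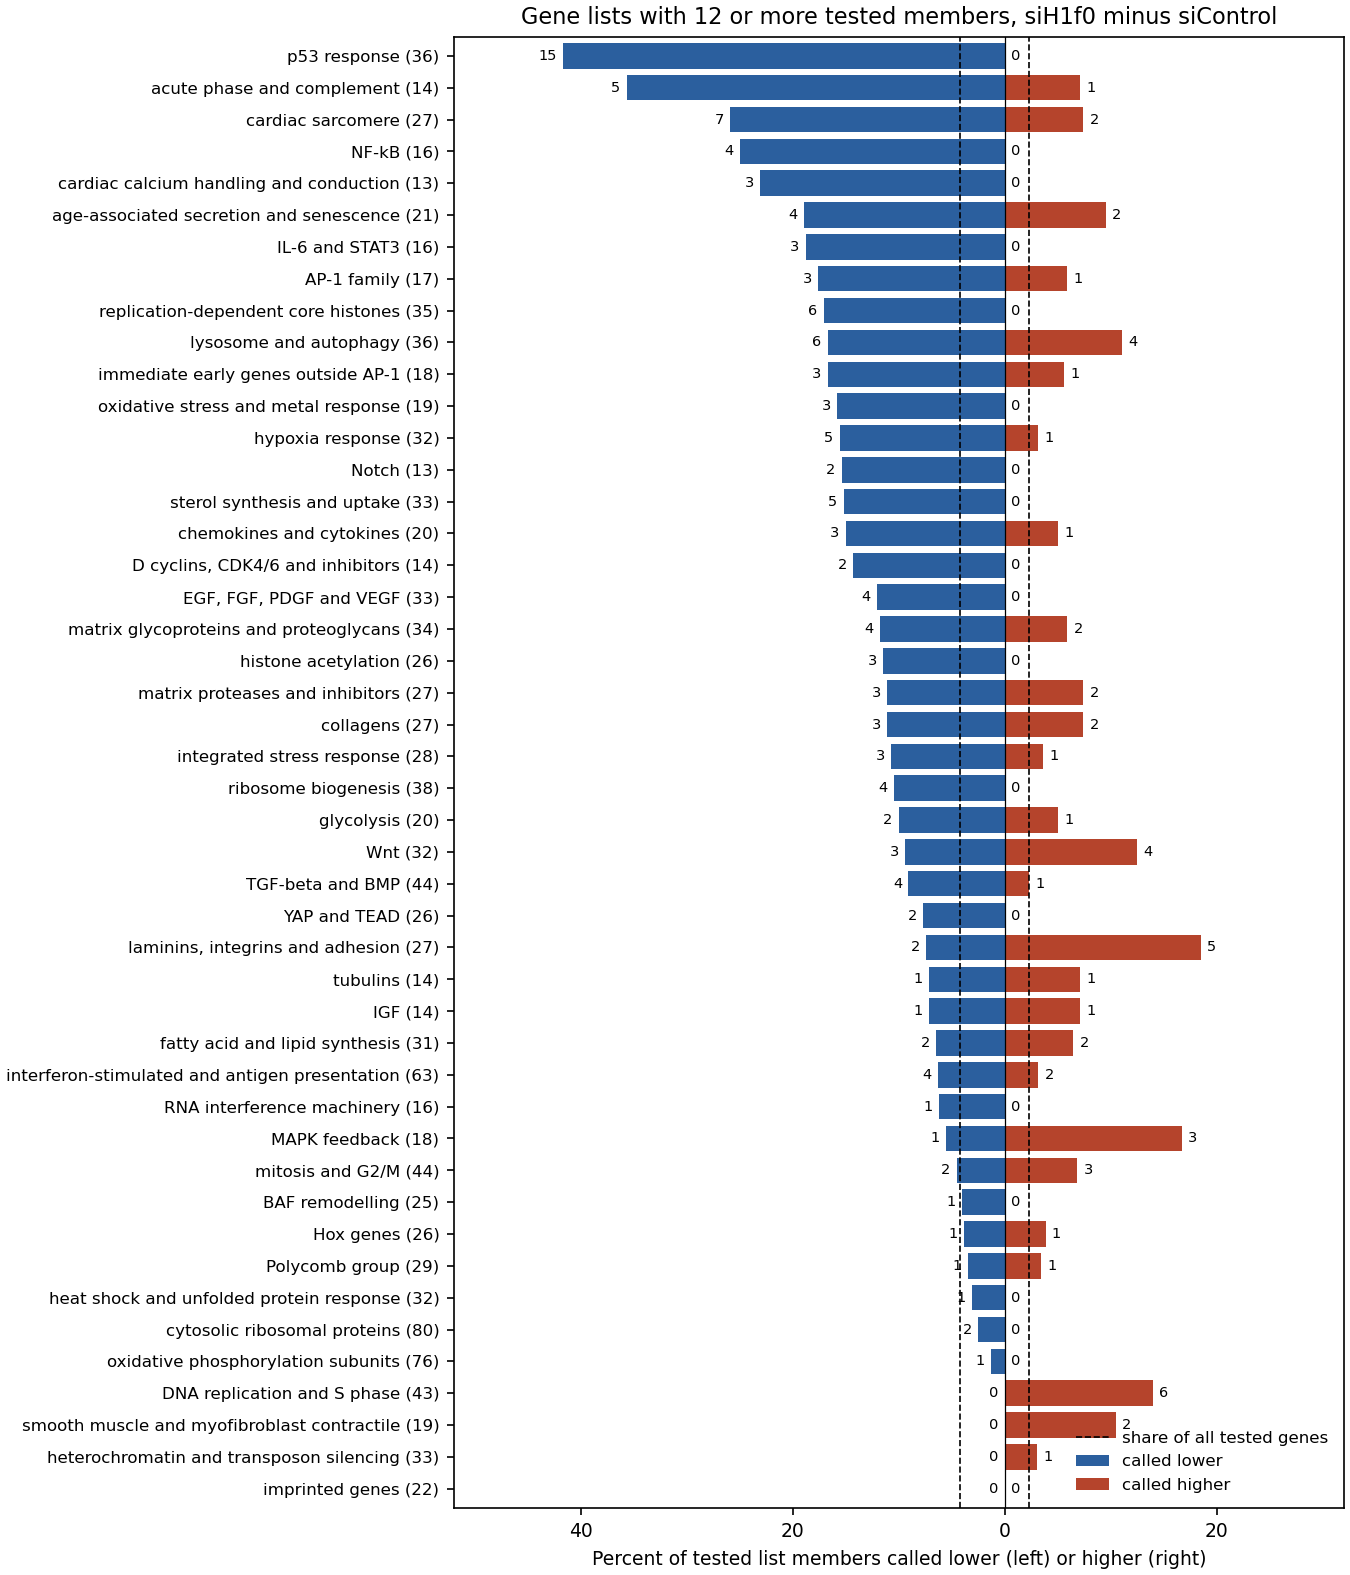
Share of tested members called lower (blue, to the left) or called higher (red, to the right) in siH1f0 for each list with at least 12 tested members, with the number of called genes at the bar's end and the number tested in brackets. Dashed lines mark the shares over all tested genes, 4.27% lower and 2.27% higher; the p53 response list reaches 41.7% lower.

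The p53 response genes that passed the test were lower in siH1f0. p53 is the transcription factor, encoded by Trp53, that halts the cell cycle or starts apoptosis after DNA damage and other stress. Of 36 measured members 15 fell (41.7%) and 0 rose, and 26 lay below 0, with a median log2 change of -0.15 against 0.003 over all genes. Ccng1, cyclin G1, was at 127 and 139 CPM in siControl and 84.8 and 83.9 CPM in siH1f0 (log2 -0.66 ± 0.06, SE, n = 2 each; edgeR adjusted p = 5.00e-04). Cdkn1a, the cyclin-dependent kinase inhibitor p21, was at 325 and 304 CPM against 221 and 226 CPM (log2 -0.49 ± 0.05, adjusted p = 9.69e-04). For both genes every siH1f0 library lay below every siControl library. The called members of the arrest group were Ccng1, Cdkn1a, Zmat3 (-1.31), Plk3 (-0.41), Gtse1 (-0.28), Btg2 (-0.25) and Plk2 (-0.22).

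Among the apoptosis genes Phlda3, an inhibitor of AKT signalling (-0.62), Aen, an exonuclease (-0.57), and Bax, which permeabilises the mitochondrial membrane (-0.43), fell. Trp53inp1, a stress protein gene (-0.54), fell in the group of p53 and its regulators. The remaining ones were 9030617O03Rik (-1.55), Sulf2, an extracellular sulfatase (-1.06), Eda2r, a TNF receptor family member (-0.95), and Ak1, adenylate kinase (-0.42). Sulf2 went from 27.5 and 31.7 CPM in siControl to 14.5 and 13.8 CPM in siH1f0. Eda2r went from 73.8 and 102 CPM to 46.0 and 45.1 CPM, with siControl 2 the highest. Trp53 itself was at 285 and 273 CPM against 254 and 262 CPM (log2 -0.11 ± 0.05, adjusted p = 0.230), and Mdm2, the ligase that degrades p53 and one of its targets, at 134 and 141 CPM against 126 and 128 CPM (log2 -0.12 ± 0.05, adjusted p = 0.188). Neither passed the test.

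Of the 36 tested members 3 hold a heptamer, all of them called: Zmat3, Cdkn1a and Btg2. Without them 12 of 33 fell and the median was -0.12. The number of members called lower was 17 without siControl 1 and 20 without siControl 2, and ranged down to 5 when an siH1f0 library was left out. Those called without each library in turn were 9030617O03Rik, Zmat3, Sulf2, Ccng1 and Cdkn1a; 10 lost the call without siH1f0 1, 8 without siH1f0 2 and 5 without either siJunb library (highest adjusted p 0.291). Against siJunb, a comparison that shares the siH1f0 libraries but no control, 23 of the 36 were lower in siH1f0 and 3 higher, beside 13.8% lower and 12.2% higher over all genes. Ccng1 was at 203 and 194 CPM and Zmat3 at 76.2 and 78.9 CPM in siJunb. The list summed to 2528 and 2534 CPM in siControl, 2127 and 2145 CPM in siH1f0, and 2773 and 2736 CPM in siJunb. Since siJunb lay above siControl, the comparison with siJunb does not measure the fall from siControl.

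**Figure D4:**
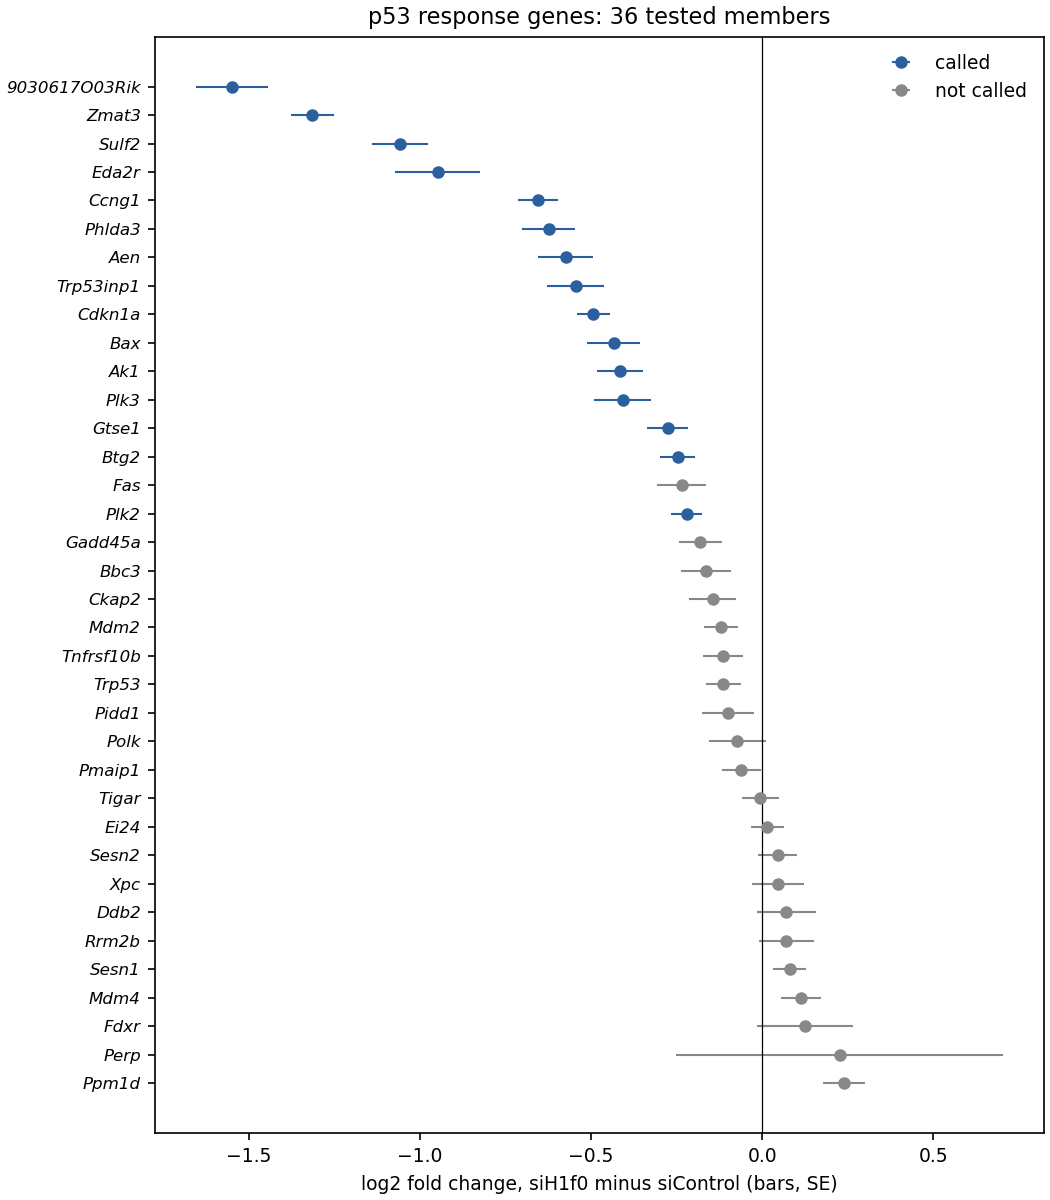
log2 fold change, siH1f0 minus siControl (horizontal axis; bars, SE), of the 36 tested p53 response genes, in order of change. The 15 called members (blue) lie between -1.55 and -0.22, and the 21 others (grey) between -0.23 and 0.24.

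Most of the inflammatory genes that passed the test were lower in siH1f0. Acute-phase and complement genes had 5 of 14 members lower and 1 higher, NF-kB genes 4 of 16 lower and 0 higher, chemokines and cytokines 3 of 20 lower and 1 higher, and the IL-6 and STAT3 group 3 of 16 lower and 0 higher. Of the 8 tested complement genes 0 were called and 2 lay below 0, with a median of 0.24. The chemokine and cytokine list summed to 612 and 621 CPM in siControl and to 666 and 656 CPM in siH1f0. Saa3, an acute-phase apolipoprotein made by fibroblasts and macrophages, was at 8.31 and 7.44 CPM in siControl and 2.56 and 2.74 CPM in siH1f0 (log2 -1.57 ± 0.13, SE, n = 2 each; edgeR adjusted p = 3.45e-04). Ptx3, a secreted pentraxin, was at 41.4 and 36.5 CPM against 23.3 and 24.1 CPM (log2 -0.71, adjusted p = 9.49e-04). Hp, haptoglobin, was at 1.58 and 1.18 CPM against 0.332 and 0.269 CPM (log2 -2.21). Vcam1, a leukocyte adhesion molecule (-0.47), also fell, and Lcn2, lipocalin 2, fell to a single-count level in siH1f0 (0.287 and 0.213 CPM against 0.0332 and 0 CPM). Cp, ceruloplasmin, rose by 0.53.

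The NF-kB members that fell were Nfkbia, the inhibitor IκBα (-0.45), Nfkbiz (-0.37), Relb (-0.36) and Nfkb1 (-0.25). Nfkbia, itself a target of NF-kB, was at 51.3 and 48.7 CPM in siControl and 35.3 and 38.0 CPM in siH1f0 (edgeR adjusted p = 0.00405). The chemokine gene Cxcl1 was at 4.20 and 3.86 CPM against 2.26 and 2.38 CPM (log2 -0.80, edgeR adjusted p = 0.00835) and Ccl2 at 3.18 and 2.95 CPM against 1.79 and 1.78 CPM (log2 -0.78). The groups did not overlap for these genes. Lif, a cytokine of the IL-6 family, fell by 0.41, whereas Cxcl12, a chemokine that fibroblasts make without stimulation, rose by 0.23. Cebpd, a transcription factor of the acute-phase response, was at 84.1 and 77.6 CPM against 50.7 and 55.1 CPM (log2 -0.61). The kinase gene Pim1 (-0.29) and the receptor gene Lifr (-0.28) completed the 3 lower genes of the IL-6 group.

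Of 63 interferon-stimulated and antigen presentation genes 4 fell, Irf1 (-0.37), Gbp2 (-0.36), Xaf1 (-0.36) and Nlrc5 (-0.27), and 2 rose, H2-M3 (0.41) and Iigp1 (0.38), shares of 6.35% and 3.17%. Saa3, Ptx3 and Cebpd were called without each library in turn. Of the 23 inflammatory genes named here, 19 lost the call without siH1f0 1, 19 without siH1f0 2 and 12 without either siJunb library (highest adjusted p 0.368). Of the 23, Saa3, Nfkbia, Nfkb1 and Cebpd hold a heptamer. Without the holders 4 of 13 acute-phase genes and 2 of 13 NF-kB genes fell. The leukocyte marker list summed to 15.8 and 11.9 CPM in siControl and 11.98 and 13.6 CPM in siH1f0, and its defining member Ptprc (CD45) was at 0 in all 6 libraries.

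The promoters of Nfkbia and Cxcl1 are shown as 2 called inflammatory genes whose promoters match the kappa-B consensus. The windows run from 250 bases before to 50 after the RefSeq start site (GRCm38.p6), and the match to the kappa-B consensus, searched on both strands, is in capitals.
Nfkbia, chr12:55492598-55492897, minus strand: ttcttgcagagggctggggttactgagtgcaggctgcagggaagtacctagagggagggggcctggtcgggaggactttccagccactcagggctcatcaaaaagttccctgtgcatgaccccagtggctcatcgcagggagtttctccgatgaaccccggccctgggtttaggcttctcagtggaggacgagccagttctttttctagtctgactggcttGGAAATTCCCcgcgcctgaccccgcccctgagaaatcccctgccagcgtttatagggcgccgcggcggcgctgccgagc
Cxcl1, chr5:90890995-90891294, plus strand: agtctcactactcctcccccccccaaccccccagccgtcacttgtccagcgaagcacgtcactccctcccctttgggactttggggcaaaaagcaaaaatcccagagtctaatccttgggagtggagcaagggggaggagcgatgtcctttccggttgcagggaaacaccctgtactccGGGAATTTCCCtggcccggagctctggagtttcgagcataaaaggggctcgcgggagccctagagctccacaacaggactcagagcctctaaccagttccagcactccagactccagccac
The consensus occurs in 4.35% of 27025 promoters of this length. In Cxcl1 it matches at overlapping positions. It was found in 7 of 12 promoters of the NF-kB list (Nfkbia, the 1 called), in 3 of 12 of the chemokine list (1 of 3 called, Cxcl1) and in 1 of 8 of the acute-phase list (1 of 4 called, Ptx3). Of the other motifs searched, on both strands, the p53 half-site was found in 11 of 27 promoters of the p53 list (4 of 12 called, Cdkn1a, Ccng1, Bax and Aen) and in 8.37% of all promoters. The CArG box, searched only as exact matches to CCWWWWWWGG (W, A or T), was found in 4 of 15 of the contractile list (1 of 2 called, Myl9). It occurred in 1.57% of all promoters. The Acta2 window held no exact match, but near matches were not searched, so its promoter cannot be said to lack the element. The sterol regulatory element given below was found in 1 of 25 of the sterol list.

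Genes of sterol synthesis and uptake that passed the test were lower in siH1f0. These genes are switched on together by the transcription factor SREBP-2, encoded by Srebf2, when membrane cholesterol is low. Of 33 members 5 fell and 0 rose (15.2% lower, median -0.07), and 23 lay below 0. The median was -0.08 without siControl 1 and -0.06 without siControl 2. With either siControl library left out, some members were called higher as well. Hmgcs1, the HMG-CoA synthase gene, was at 63.4 and 62.5 CPM in siControl and 44.3 and 42.6 CPM in siH1f0 (log2 -0.54 ± 0.05, SE, n = 2 each; edgeR adjusted p = 0.00104). Srebf2 was at 218 and 235 CPM against 166 CPM in both siH1f0 libraries (log2 -0.45, adjusted p = 0.00186). The groups did not overlap for either gene. Sqle, squalene epoxidase (-0.42), and Msmo1, a sterol demethylase (-0.35), also fell. Sqle holds a heptamer, and Hmgcs1, Srebf2 and Msmo1 do not.

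The Hmgcs1 promoter is shown with its match to the sterol regulatory element (TCACNCCAC, either strand) in capitals, a motif found in 1.22% of the 27025 promoters and in 1 of 25 sterol genes with a promoter in the table.
Hmgcs1, chr13:119690101-119690400, plus strand: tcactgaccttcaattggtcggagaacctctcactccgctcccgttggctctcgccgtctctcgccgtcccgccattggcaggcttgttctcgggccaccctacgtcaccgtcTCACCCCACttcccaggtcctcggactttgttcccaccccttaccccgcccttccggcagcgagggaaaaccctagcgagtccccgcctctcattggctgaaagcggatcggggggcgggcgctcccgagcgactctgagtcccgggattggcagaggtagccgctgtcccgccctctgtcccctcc

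Fatty acid and lipid genes had 2 of 31 members higher, the elongase gene Elovl5 (0.22) and Acacb (0.35), and 2 lower, Elovl1 (-0.33) and the lipid-droplet coat gene Plin2 (-0.35). Elovl1 holds a heptamer. Lpl, lipoprotein lipase, rose from 25.1 and 25.7 CPM to 39.6 and 39.2 CPM (log2 0.63 ± 0.06, SE, n = 2 each; edgeR adjusted p = 4.81e-04). Its groups did not overlap, and it was the 1 called gene of 4 tested adipocyte markers. That list summed to 30.2 and 30.7 CPM in siControl and 44.7 and 43.9 CPM in siH1f0, with Adipoq and Lep at 0 in all libraries. Of these 9 sterol and lipid genes, Hmgcs1, Srebf2 and Lpl were called without each library in turn; 6 lost the call without siH1f0 1, 6 without siH1f0 2 and 3 without either siJunb library (highest adjusted p 0.328).

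Lysosomal genes changed in both directions, with 4 of 36 members of the lysosome and autophagy list higher and 6 lower (11.1% and 16.7%). Gla, alpha-galactosidase A, was at 33.0 and 30.8 CPM in siControl and 14.6 and 15.4 CPM in siH1f0 (log2 -1.08 ± 0.07, SE, n = 2 each; edgeR adjusted p = 6.74e-05), and it holds heptamer 1 at 2 sites. The cathepsin genes Ctsa (-0.41), Ctsl (-0.37) and Ctsd (-0.22) and the autophagy gene Gabarapl1 (-0.22) fell, and Gabarapl1 holds a heptamer. Lipa, lysosomal acid lipase, rose from 167 and 177 CPM to 236 and 224 CPM (log2 0.42, edgeR adjusted p = 0.00285), and so did Ctsh (0.77), Naglu (0.29) and Glb1 (0.26). In glycolysis the hexokinase gene Hk2 (-0.40) and Tpi1 (-0.27) fell and Pfkm (0.24) rose, of 20 members. Of these 12 genes Gla alone was called without each library in turn, and 11 lost the call without siH1f0 1 and 10 without siH1f0 2 (highest adjusted p 0.368).

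Where replication genes passed the test they were higher in siH1f0. Of 43 DNA replication and S phase genes 6 rose (14.0%) and 0 fell, with a median of 0.12. Cdc6, which loads the replicative helicase, was at 69.5 and 70.6 CPM in siControl and 88.5 and 85.9 CPM in siH1f0 (log2 0.32 ± 0.05, SE, n = 2 each; edgeR adjusted p = 0.00835). Tk1, thymidine kinase, was at 78.9 and 74.0 CPM against 93.9 and 92.6 CPM (log2 0.29, adjusted p = 0.0165). These genes were among 37 of the 43 (86.0%) with no overlap between the groups, against 50.6% of all genes tested. Pole, the leading-strand polymerase (0.37), Rrm1, a ribonucleotide reductase subunit (0.23), and Mcm5, a helicase subunit (0.20), also rose. Cdc6 and Mcm5 hold a heptamer.

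Of 44 mitotic genes 3 rose and 2 fell (6.82% and 4.55%; median 0.08). Nuf2 (0.30), of the kinetochore, Nek2 (0.24) and Top2a, topoisomerase II (0.23), rose, while the kinetochore gene Ndc80 (-0.27) and the phosphatase gene Cdc25b (-0.31) fell. Ccnd1, cyclin D1, was at 9.61 and 8.46 CPM in siControl and 6.61 and 7.05 CPM in siH1f0 (log2 -0.41, edgeR adjusted p = 0.0396). Apart from Cdkn1a it was the 1 called member of 14 genes of the D cyclins, their kinases and inhibitors. All of these cell cycle genes but Cdkn1a lost the call without either siH1f0 library (highest adjusted p 0.312). With siControl 1 left out 25 replication genes were called higher and 2 lower, and with siControl 2 left out 20 and 5.

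Acta2 was at 63.1 and 58.1 CPM in siControl and 109 and 112 CPM in siH1f0 (log2 0.87 ± 0.06, SE, n = 2 each; edgeR adjusted p = 1.07e-04). Myl9 was at 14.4 and 11.2 CPM against 22.4 and 23.5 CPM (log2 0.84 ± 0.12, adjusted p = 0.00515). They were the 2 called members of 19 smooth muscle and myofibroblast contractile genes, none of which fell. The cell surface marker Mcam rose by 0.37. The smooth muscle marker list summed to 136 and 130.3 CPM in siControl and 189 and 191 CPM in siH1f0, with Rgs5 at 0 in all libraries. Acta2 makes up most of the difference: without it the list summed to 72.5 and 72.2 CPM in siControl and 80.1 and 78.6 CPM in siH1f0. Of 7 tested markers Acta2 and Mcam were called and 3 lay below 0, and the median of 0.35 became -0.07 without siControl 1.

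Laminin genes changed in both directions. Laminins are trimers that link cells to the basement membrane through integrins. Of 27 laminin, integrin and adhesion genes 5 rose (18.5%) and 2 fell (7.41%). The 13 laminin and nidogen genes held 4 of those higher and both lower, and of 12 integrin genes 1 rose. Of 8 basement membrane collagen genes 0 were called and 5 lay below 0 (median -0.12). Lamb2 was at 874 and 897 CPM in siControl and 1098 and 1082 CPM in siH1f0 (log2 0.30 ± 0.04, SE, n = 2 each; edgeR adjusted p = 0.00530). The other higher members were Lama2 (1.00), the integrin gene Itga8 (0.76), Lama4 (0.46) and Lama5 (0.31). Lamb1 was at 295 and 316 CPM against 251 and 246 CPM (log2 -0.30), and Nid2, nidogen 2, fell by 0.32. The beta chains thus went in opposite directions, Lamb2 up and Lamb1 down.

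Collagens had 2 of 27 members higher, Col8a1 and Col1a2, and 3 lower, Col5a2 (-0.22), Col11a1 (-0.51) and Col11a2 (-0.45). Col1a2, a chain of type I collagen, was at 543 and 557 CPM in siControl and 708 and 688 CPM in siH1f0 (log2 0.34, edgeR adjusted p = 0.00292). Among 34 matrix glycoproteins and proteoglycans Dcn (0.65) and Fbn1, fibrillin 1 (0.40), rose. Thbs1, thrombospondin 1 (-0.51), the lysyl oxidase gene Loxl1 (-0.35), Efemp1 (-0.21) and Ctgf (-0.21) fell. Matrix proteases and inhibitors had 2 of 27 higher, Slpi and Serpinf1 (0.26), and 3 lower, the protease inhibitor gene Serpine2 (-0.55) and the protease genes Mmp19 (-0.36) and Adamts1 (-0.27). Col11a1 and Thbs1 hold a heptamer. Acta2, Lama2, Col8a1 and Slpi were called without each library in turn; of the other 22 matrix, adhesion and contractile genes named as called, 21 lost the call without siH1f0 1, 22 without siH1f0 2 and 13 without either siJunb library (highest adjusted p 0.349).

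Sarcomere genes changed in both directions. Of 27 sarcomere genes 7 fell (25.9%) and 2 rose (7.41%), with a median of -0.12. The median was -0.05 without siControl 1 (6 higher, 7 lower) and -0.21 without siControl 2 (5 higher, 12 lower). Among the Z-disc genes Synpo2l was at 160.4 and 162 CPM in siControl and 100.4 and 100.1 CPM in siH1f0 (log2 -0.68 ± 0.05, SE, n = 2 each; edgeR adjusted p = 1.77e-04). Ankrd1, a stretch-responsive cofactor and a target of YAP, was at 638 and 608 CPM against 453 and 459 CPM (log2 -0.45, adjusted p = 9.49e-04). Myoz1, calsarcin 2, was at 4.63 and 3.93 CPM against 1.73 and 1.87 CPM (log2 -1.25). In all 3 genes both siH1f0 libraries lay below both siControl libraries. Xirp1 (-1.09), Myoz2 (-0.57) and the chaperone gene Cryab (-0.39) also fell, which makes 6 of 12 Z-disc genes, as did the thin-filament gene Lmod2 (-0.53). None of the 7 holds a heptamer.

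Tnni3 was at 5.10 and 5.63 CPM in siControl and 7.96 and 9.19 CPM in siH1f0 (log2 0.68, edgeR adjusted p = 0.0114), and Myom1, which crosslinks thick filaments at the M-band, at 11.03 and 11.6 CPM against 16.6 and 16.5 CPM (log2 0.55, edgeR adjusted p = 0.00520). Both rose, opposite to the Z-disc genes. In calcium handling and conduction 3 of 13 fell and 0 rose: Gja1, Jph2, which couples the plasma membrane to the calcium store (-0.51), and Casq2, calsequestrin (-0.47). Casq2 was at 52.4 and 51.8 CPM against 38.1 and 37.3 CPM. Of 9 endogenous cardiac transcription factor genes Hopx rose (0.53) and Mef2d fell (-0.25). Myoz1, Synpo2l, Ankrd1 and Gja1 were called without each library in turn; of the 14 cardiac genes named as called, 9 lost the call without siH1f0 1, 10 without siH1f0 2 and 3 without either siJunb library (highest adjusted p 0.330). Gja1 and Mef2d hold a heptamer. Skeletal muscle markers, of which 11 were in the table, summed to between 1.18 and 2.53 CPM in the 4 libraries, with Myog and Myf5 at 0 in every library.

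Of 33 genes of the EGF, FGF, PDGF and VEGF families 4 ligand genes fell (12.1%) and 0 rose. Without the 5 that hold a heptamer, 1 of 28 fell. Tgfa, a ligand of the EGF receptor, was at 28.6 and 32.4 CPM in siControl and 14.6 and 14.7 CPM in siH1f0 (log2 -1.05 ± 0.09, SE, n = 2 each; edgeR adjusted p = 3.83e-04). Fgf7, keratinocyte growth factor, was at 88.8 and 94.6 CPM against 64.8 and 61.6 CPM (log2 -0.54, adjusted p = 0.00104). Hbegf (-0.49) and Pdgfb (-0.62) also fell. Tgfa, Fgf7 and Pdgfb hold a heptamer, and Hbegf does not. Among the immediate early genes outside AP-1, Myc was at 84.2 and 80.0 CPM against 57.3 and 54.1 CPM (log2 -0.56, edgeR adjusted p = 0.00188), while Klf10 rose (0.33). MAPK feedback genes had 3 of 18 higher, the phosphatase genes Dusp14 (0.29) and Dusp1 (0.25) and Spry3 (0.58), and 1 lower, Dusp5 (-0.48). In the AP-1 family 3 of 17 members fell, Fosl2 (-0.45) and Maff (-0.27) among them, and Jdp2 rose (0.22). Without heptamer holders 1 of 15 fell. Junb was at 39.1 and 35.7 CPM against 29.98 and 31.1 CPM and did not pass (log2 -0.29, adjusted p = 0.0778).

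In the TGF-beta and BMP list 4 of 44 fell, the receptor gene Tgfbr2 (-0.42), the BMP antagonists Grem1 (-0.50) and Nog (-1.25) and the repressor gene Tgif1 (-0.30), and 1 rose, Fstl1 (0.21). Wnt genes had 4 of 32 higher and 3 lower: the receptor genes Fzd5 and Fzd4 (0.61), the ligand Wnt5a (0.37) and the antagonist Sfrp1 (0.42) rose, and Axin2, a feedback target (-0.37), the agonist Rspo3 (-0.28) and the antagonist Wif1 (-0.49) fell. Fzd5 was at 50.9 and 55.9 CPM in siControl and 72.0 and 71.3 CPM in siH1f0 (log2 0.42, edgeR adjusted p = 0.00609). In Notch signalling Notch1 (-0.43) and the coactivator gene Maml1 (-0.46) fell, of 13. IGF genes had Igfbp7 (0.28) higher and Irs1 (-0.35) lower, of 14. Of the 29 signalling genes named in this and the preceding paragraph as called, Tgfa, Fgf7 and Myc were called without each library in turn; 24 lost the call without siH1f0 1, 26 without siH1f0 2 and 19 without either siJunb library (highest adjusted p 0.343). Of the 29, 7 hold a heptamer: Tgfa, Fgf7, Pdgfb, Fosl2, Tgfbr2, Notch1 and Rspo3.

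Of 33 heterochromatin and transposon silencing genes Uhrf1, which guides maintenance DNA methylation, rose (0.19; 3.03% of the list) and none fell, and of 29 Polycomb genes the PRC2 subunit Suz12 rose and the PRC1 subunit Pcgf5 fell (3.45% each way). Suz12 was at 203 and 223 CPM in siControl and 258 and 264 CPM in siH1f0 (log2 0.29, edgeR adjusted p = 0.0195), and Pcgf5 at 40.1 and 44.8 CPM against 29.1 and 27.8 CPM (log2 -0.58, edgeR adjusted p = 0.00216). Pcgf5 holds heptamer matches at 3 sites. Of 26 histone acetylation genes 3 fell (11.5%), Kat2b (-0.35), Hdac9 (-0.45) and Hdac7 (-0.24), as did Hmga2 (-0.32) and Hmgb3 (-0.24) of 9 HMG genes (22.2%), Smarcd1 (-0.31) of 25 BAF subunits and the variant H2afz (-0.22) of 9 replication-independent histones (11.1%). Over all genes 2.27% were higher and 4.27% lower. Of 26 Hox genes Hoxa2 rose (0.43) and Hoxc9 fell (-0.56), and of 22 imprinted genes none was called. Of 16 genes of the RNA interference machinery Tnrc6c fell (-0.36). Hmgb3, H2afz and Tnrc6c also hold a heptamer. Of these 13 genes Pcgf5 alone was called without each library in turn, and 12 lost the call without either siH1f0 library (highest adjusted p 0.387).

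Genes of oxidative stress and metal responses were lower where they passed the test. Mt2, a metallothionein, was at 55.5 and 47.9 CPM in siControl and 26.2 and 28.5 CPM in siH1f0 (log2 -0.92 ± 0.08, SE, n = 2 each; edgeR adjusted p = 4.54e-04), and Mt1 fell by 0.42. Gstp1, a glutathione transferase, was at 111 and 95.4 CPM against 66.9 and 67.1 CPM (log2 -0.63, adjusted p = 0.00174). They were the 3 called of 19 oxidative stress and metal response genes. In the hypoxia response 5 of 32 fell, Egln3, Arnt (-0.36), Ero1l (-0.27), Ddit4 (-0.47) and Ndrg1 (-0.19), and Errfi1 rose (0.25); Egln3, Arnt and Errfi1 hold a heptamer. The integrated stress response had 3 of 28 lower, the amino acid transporter genes Slc7a5 (-0.27) and Slc3a2 (-0.25) and Ddit4, and 1 higher, Chac1 (0.24). Slc7a5 holds a heptamer as well. Of 32 chaperone and unfolded protein response genes Calr, calreticulin, fell (-0.24).

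Ribosome biogenesis genes had 4 of 38 lower and 0 higher: Nip7 (-0.48), Polr1e, a subunit of RNA polymerase I (-0.45), Pes1 (-0.26) and Gnl3 (-0.25). Nip7 holds a heptamer. Among 80 cytosolic ribosomal protein genes 2 fell, Rps15a and Rps29 (-0.26), and 75 lay below 0 with a median of -0.09. Rps15a was at 226 and 199 CPM in siControl and 143 and 154 CPM in siH1f0 (log2 -0.52, edgeR adjusted p = 0.00364), and it holds heptamer 1 at 2 sites. Without siControl 1 the median was -0.01 and 5 were lower and 7 higher, and without siControl 2 it was -0.17 and 71 were lower. Of 76 oxidative phosphorylation subunit genes 1 fell, Ndufa4, from 125 and 111 CPM to 74.4 and 77.5 CPM (log2 -0.64, edgeR adjusted p = 9.01e-04). Without siControl 1 20 were higher and 3 lower, and without siControl 2 1 was higher and 34 lower. Of the 20 stress, ribosome and respiration genes named as called here and in the preceding paragraph, Gstp1, Mt2, Egln3 and Ndufa4 were called without each library in turn. Each of the others lost the call without siH1f0 1 or without siH1f0 2, and many also without an siJunb library.

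RNAs that lack a poly(A) tail were lower in siH1f0, and here siControl 1 stood apart. Rn45s, at 3041 and 3424 CPM in siH1f0, reached 6287 CPM in siControl 2 and 18761 CPM in siControl 1 (log2 -1.95 ± 0.40, SE, n = 2 each; edgeR adjusted p = 0.0255). Rpph1, the RNA of RNase P, was at 15.7 and 3.95 CPM against 0.997 and 1.36 CPM (log2 -3.07), and Rmrp, that of RNase MRP, at 26.0 and 6.65 CPM against 2.48 and 2.38 CPM (log2 -2.77). In each the level of siControl 1 was well above that of siControl 2, which in turn lay above both siH1f0 libraries. Of 8 RNAs on the list 6 fell, with Mir6236 (-1.69), Vaultrc5 (-2.22) and Snhg1 (-0.35). Snhg1 and Snhg12 on it are spliced host genes of small nucleolar RNAs, known to be polyadenylated, and without them 5 of 6 fell. Lars2, whose symbol collects reads in the same pattern, was at 1289 and 638 CPM against 336 and 367 CPM (log2 -1.45). All 7 lost the call without either siH1f0 library (highest adjusted p 0.324). Against siJunb, Rn45s differed by -0.86 (edgeR adjusted p = 0.138), so a difference from that group was not shown. The part of leftover RNA without poly(A) tails in these values was not tested.

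The summed level of the replication-dependent core histone genes was also highest in siControl 1. Most of their mRNAs are not polyadenylated, and the gene copies are nearly identical, so their counts are uncertain. They summed to 47.2 and 36.7 CPM in siControl, 24.4 and 23.7 CPM in siH1f0, and 29.6 and 28.4 CPM in siJunb. Of 35 tested genes 6 fell and 0 rose, and the median was -1.51 (-0.94 without siControl 1, -1.72 without siControl 2), at a median level of 0.247 CPM. Hist1h2bc was at 5.61 and 4.69 CPM against 2.48 and 3.13 CPM (log2 -0.88, edgeR adjusted p = 0.0136), and Hist2h2bb at 2.26 and 2.34 CPM against 1.06 and 0.943 CPM (log2 -1.20, edgeR adjusted p = 0.00513). Of these, Hist2h2bb was higher in siJunb (2.65 and 2.62 CPM), and Hist2h2be (-0.60) had 5.04 CPM in the first siControl library and 5.10 CPM in the other, so siControl 1 was not the highest library for either gene. Hist1h2be (-1.73), Hist1h3e (-2.38) and Hist1h4n (-2.44) were the others. Of the 6, Hist2h2be holds a heptamer. All 6 lost the call without either siH1f0 library, and Hist1h3e and Hist1h4n also without siControl 1 (highest adjusted p 0.255).

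**Figure D5:**
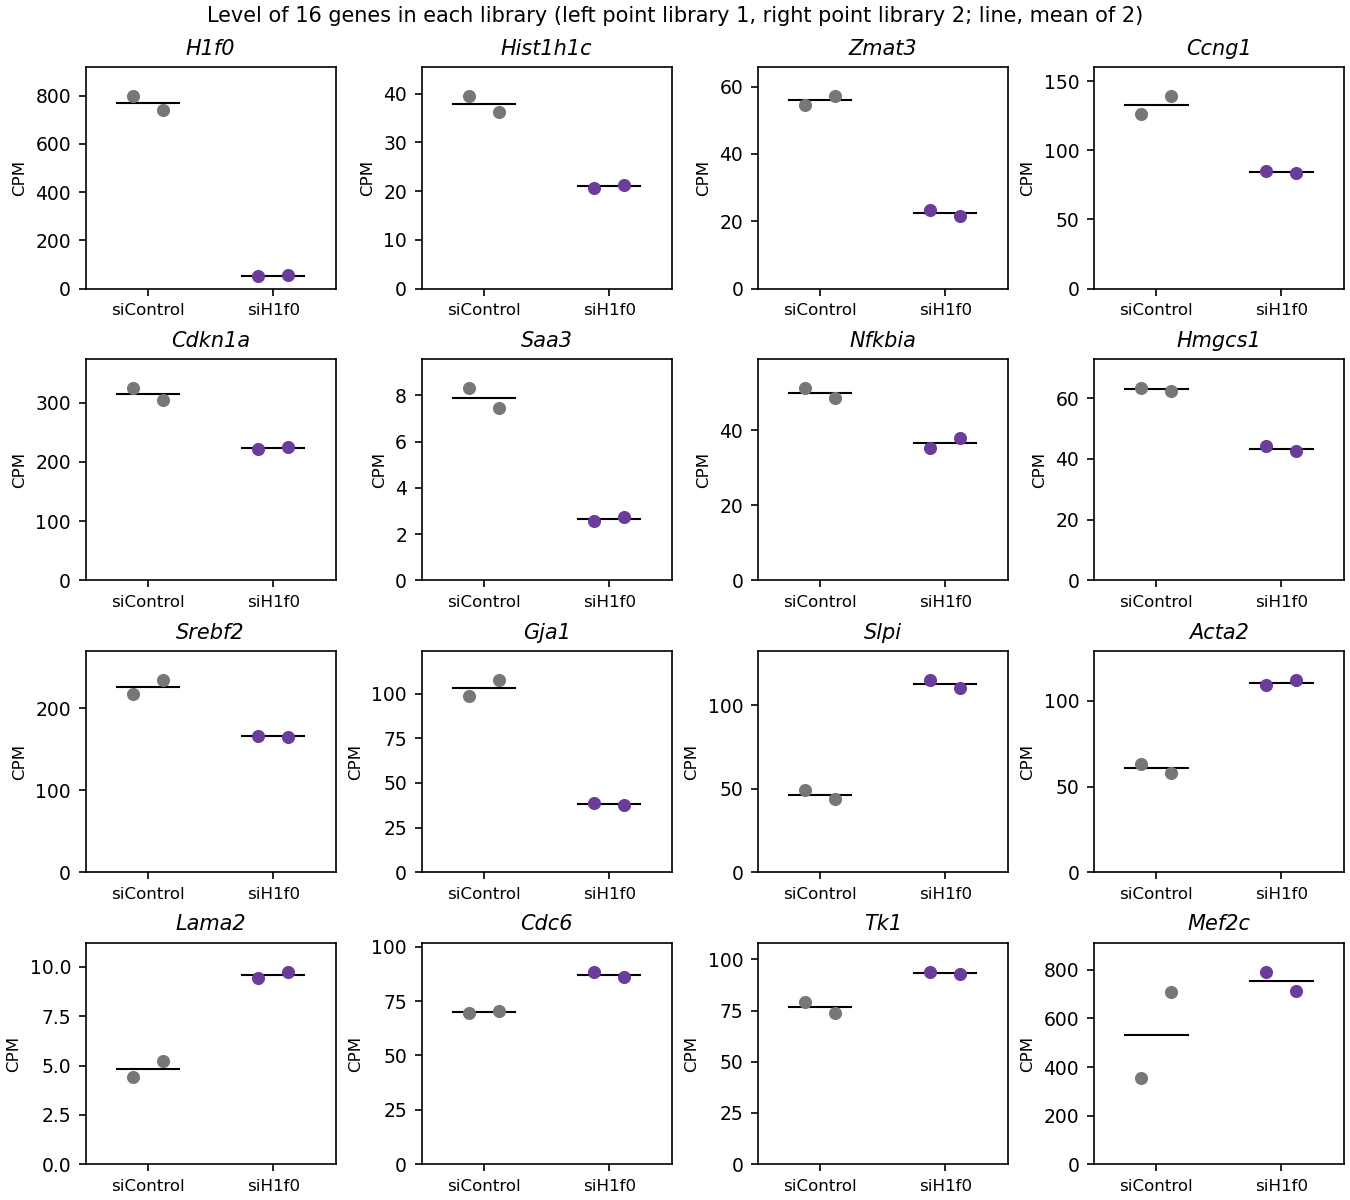
CPM (vertical axes, from 0) of 16 genes in the 2 siControl libraries (grey) and the 2 siH1f0 libraries (purple); each point is a library and the line their mean. The groups do not overlap in any panel, but for Mef2c the siControl libraries lie far apart, at 354 and 709 CPM.

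By cut-offs on raw counts, no symbol went from silent to detected in siH1f0. The search took symbols with at most 5 counts in both libraries of a group and at least 20 in both of the other. Counts were not scaled to depth, and siControl 1 was the deepest library (85979630 counts), so the low cut-off was strictest there. Whether chromatin opened was not tested. None of 24516 went from silent in siControl to detected in siH1f0, and 1 went the other way, Snord15a, a small nucleolar RNA (named after its values were seen). Between siH1f0 and siJunb the counts were 1 gene detected in siH1f0 alone, Atp13a5, and 0 in siJunb alone.

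Calls fell on every chromosome. By chromosome the share called higher ran from 0.855% (chromosome 13, 468 genes) to 4.44% (chromosome 1, 721 genes), and the share called lower from 2.84% (chromosome 6) to 6.05% (chromosome 15, which carries H1f0). Genes with a CpG-rich promoter had 2.15% higher and 4.23% lower (5916 genes), and the 4298 others 2.49% and 4.07%. Of 556 long noncoding RNA genes 1.26% were higher and 2.16% lower, and of 12160 protein-coding genes 2.41% and 4.34%. Of 88 families of at least 15 tested symbols sharing a stem, 81 had a median within 0.1 of 0. The lowest medians were those of the Hist genes (-1.31), the small nucleolar RNA families Snora (-0.42) and Snord (-0.40) and their host genes Snhg (-0.24), and the highest that of Adam (0.11). Without siControl 1 they were -0.76 for Hist, -0.20 for Snora, -0.34 for Snord and -0.17 for Snhg, and without siControl 2 -1.70, -0.85, -0.58 and -0.28 in that order.

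The direct comparison with siJunb asked whether calls against siControl were also differences between the siRNAs. There 25.9% of genes were called. Of the 305 genes higher in siH1f0 than in siControl, 206 (67.5%) were also higher than in siJunb, and of the 574 lower genes 439 (76.5%) were also lower. Both comparisons use the siH1f0 libraries, so the shares are not independent support. Slpi was at 44.5 and 45.4 CPM in siJunb, close to siControl and below both siH1f0 libraries (siH1f0 minus siJunb 1.33, edgeR adjusted p = 9.02e-06). Gja1 was at 111 and 116 CPM in siJunb and differed from siH1f0 by -1.57 (edgeR adjusted p = 3.00e-06). Col8a1 was at 33.98 and 32.04 CPM in siJunb, above siH1f0 (-0.31, edgeR adjusted p = 0.0190), and Cdsn at 3.12 and 3.01 CPM, a level that did not differ from siH1f0 by the test (0.14, edgeR adjusted p = 0.424).

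The remaining lists hold mostly genes described above. Of 26 YAP and TEAD genes Ankrd1 and Ctgf fell, and of 21 senescence genes Cdkn1a, Hmga2, Cxcl1 and Ccl2 fell and Glb1 and Igfbp7 rose. Of 14 tubulins Tubb2a rose (0.24) and the neuron-enriched Tubb3 fell (-0.64). Of 18 immediate early genes outside AP-1, Myc, Btg2 and Zfp36l1 (-0.23) fell and Klf10 rose.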

How the data were processed

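Poly(A) RNA was sequenced from 6 libraries in 3 groups of 2, grouped by the sample labels, which call them biological replicates of 1 line. The authors deposited a table of raw counts, not normalised, with 1 row per gene symbol and a length per symbol in bases, used here only for RPKM. HISAT2, featureCounts, Subread and the build mm10 are named in the submitters' processing notes; the strand setting and the treatment of multi-mapped reads were not stated in these sources. edgeR 4.0.16 (R 4.3.3), after its expression filter and TMM scaling (factors 0.979 to 1.02), fitted the quasi-likelihood F test to the 6 libraries by group, with 3 residual degrees of freedom. Calls required an adjusted p (Benjamini-Hochberg) under 0.05, and 3060 genes had an unadjusted p under 0.05. CPM were computed from the deposited counts over TMM-scaled library sizes. The SE given with a log2 change is its absolute value divided by the square root of the F value. It thus rests on the spread shared by the 6 libraries and across genes, not on the libraries compared alone. The smallest exact permutation p for groups of 2 is 0.333 (two-sided), so a call relies on spread estimated over many genes. Scripts were tested on simulated data.

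Names, coordinates and promoters come from RefSeq GRCm38.p6 (23591 of 24516 symbols found; promoters for 10214 tested genes) and 3′ UTRs from GENCODE vM21. Named genes were H1f0, the other linker histones, Mef2c, Gata4 and Tbx5, then 12 genes per direction ranked by size of change among called genes with a mean of 5 CPM or more and no overlap (Gm, Rik, Mir and bare Ensembl symbols left out), then up to 4 called members per list and direction and 3 per family by smallest p. Further list members, Trp53, Mdm2, Junb, Thy1, Tnnt2, Myh6 and Atp13a5 were chosen after their values were seen. Some called list members counted in the text are not reported here by name. The members, lists and tests were chosen with earlier results of these data known.

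Alternatives were RLE factors, total counts, no filter, a floor of 5 CPM, limma-voom (limma 3.58.1), DESeq2 1.42.0, the 4 compared libraries alone, a block for the replicate number, and omission of each library, where a lone library is taken to be as variable as the rest. Omitting Rn45s, a crossed block and omitting heptamer holders were added after seeing the data.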

Additional observations from a re-analysis of the deposited data

How the results depend on the processing

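The number of genes called for siH1f0 minus siControl was 879 (305 higher, 574 lower) and moved by more than 1.5 times under these settings: 1921 with no count filter (855 and 1066), and 325 with only the 4 libraries compared (65 and 260). With DESeq2 480 were higher, and without heptamer holders 364 were lower. With a single library left out the number ran from 116 to 4932 (10 to 2601 higher, 106 to 2331 lower): 2882 without siControl 1, 4932 without siControl 2, 116 without siH1f0 1, 129 without siH1f0 2, 336 without siJunb 1 and 339 without siJunb 2. With total counts only, 407 were higher and 532 lower. For siH1f0 minus siJunb it was 3484 genes, 6416 with only those 4 libraries, and 1304 to 6435 with a library left out.

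The labels number the replicates but do not say whether libraries of the same number share a batch. The correlation of deviations between siControl and siH1f0 was -0.16, and 0.02 and 0.03 for the other pairs. Each correlation uses a single difference between libraries per group, so it cannot settle whether the numbers mark pairs. With the replicate number as a block 550 genes were called (149 higher, 401 lower), and for siH1f0 minus siJunb 2919. With the numbers of siH1f0 exchanged and the 4 libraries alone, 943 were called (358 and 585). Of 316 called genes tracked across settings, none changed direction while called; calls lost were 262 without siH1f0 1, 258 without siH1f0 2, 176 with the 4 libraries and 101 with the block, and the cause was not tested. Groups of 2 limit every call to spread borrowed from other genes.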
